A study of Mus musculus with 16 samples.

Results

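Glucocorticoid response genes were examined in the aorta of mice after sham surgery or 5/6 nephrectomy. The 9 genes were the rows named Nr3c1, Fkbp5, Tsc22d3, Zbtb16, Hif3a, Sgk1, Per1, Pdk4 and Errfi1, out of 54532 genes counted. RNA sequencing had been done on 16 aortas, each from a separate C57BL/6J mouse (male and 12 weeks old at surgery), in 4 groups of 4. Sham mice, which kept their kidneys, were fed 2% phosphorus and 2.5% protein. The remaining 3 groups had most of their kidney tissue removed in a 2-step 5/6 nephrectomy (5/6 Nx). The 5/6 Nx-HPi-Lp mice ate the same diet as the Sham mice. The 5/6 Nx-HPi-Hp mice ate 2% phosphorus and 18% protein, and the 5/6 Nx-LPi-Lp mice ate 0.3% phosphorus and 2.5% protein. All diets were given for 30 days according to the labels. No Sham mice on the HPi-Hp or LPi-Lp diet were among the samples, so against Sham the surgery and the diet of these groups cannot be told apart. No group received a glucocorticoid according to these sources, and neither blood corticosterone nor the hour of tissue collection is given in the sources used here.

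Glucocorticoids such as corticosterone enter cells and bind the glucocorticoid receptor, which is encoded by Nr3c1 and is held in the cytoplasm by heat shock protein 90 and its partner proteins. The bound receptor moves to the nucleus and binds DNA at palindromic response elements, turning on genes such as Fkbp5, Tsc22d3, Zbtb16, Sgk1, Per1 and Pdk4. In vessels glucocorticoids are known for restraining inflammation and for altering smooth muscle tone and differentiation. FKBP5 binds the receptor complex and lowers its affinity for hormone, which closes a feedback loop.

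The libraries held 13659525 to 57276915 counts assigned to genes, and all 9 genes passed the filter on low counts in all 6 pairwise comparisons. The lowest count of any of the 9 in a library was 20, for Hif3a in Sham mouse 1. Levels below are CPM (counts scaled to library size, with trimmed-mean or TMM factors over the 16 libraries), unless FPKM is named. The summed level of 6 smooth muscle markers (Acta2, Myh11, Tagln, Cnn1, Smtn and Lmod1) was 21670 to 25740 CPM in Sham mice and 2223 to 5034 CPM in 5/6 Nx-HPi-Lp mice, so the contractile markers of the labelled tissue were far lower in that group. The sum was 6541 to 23210 CPM in 5/6 Nx-HPi-Hp mice and 7597 to 17670 CPM in 5/6 Nx-LPi-Lp mice. Summed macrophage markers ran from 481.5 to 1774 CPM in 5/6 Nx-HPi-Lp mice and from 137.1 to 223.9 CPM in Sham mice, and summed white adipocyte markers from 3266 to 5750 CPM and from 559.1 to 1373 CPM. In 5/6 Nx-HPi-Hp mice these sums were 213.3 to 377.2 and 1220 to 7372 CPM, and in 5/6 Nx-LPi-Lp mice 130.8 to 243.6 and 2889 to 8061 CPM. In whole aorta, fewer cells of a type and less RNA per cell cannot be told apart. Mitochondrially encoded genes took 4.18% to 6.34% of counts in Sham mice, 19.3% to 27.1% in 5/6 Nx-HPi-Lp mice, 9.50% to 29.0% in 5/6 Nx-HPi-Hp mice and 14.2% to 21.1% in 5/6 Nx-LPi-Lp mice.

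DNA just upstream of these genes was read to show what the receptor could meet there. RefSeq (GRCm38.p6) promoter windows, running from 250 bases before to 50 bases after a transcript start, were found for 7 of the 9 genes, 16 windows in all because several genes have more than 1 start. Searched on both strands were the palindromic response element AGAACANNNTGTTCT, its single arm AGAACA, which every palindrome also contains, and the E-box CACGTG that the clock proteins bind. The palindrome was in 1 of the 16 windows, at Sgk1, and in 3 of all 32851 windows of the table (0.00913%), the other 2 belonging to Acnat2 and Gm35041. The single arm was in 4 of the 16 windows and in 19.0% of all windows, and the E-box in 3 of the 16 and in 7.15% of all. Shown are the Sgk1 window with the palindrome, the Tsc22d3 window with a single arm and the windows of Fkbp5 and Per1 with an E-box. Capitals mark the motifs.
Sgk1, chr10:21993640-21993939, plus strand: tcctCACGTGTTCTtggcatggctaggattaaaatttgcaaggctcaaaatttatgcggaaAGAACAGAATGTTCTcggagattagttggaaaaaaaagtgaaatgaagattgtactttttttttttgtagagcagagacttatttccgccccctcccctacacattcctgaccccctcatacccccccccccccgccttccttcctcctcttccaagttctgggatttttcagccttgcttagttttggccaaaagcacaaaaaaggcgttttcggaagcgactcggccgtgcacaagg
Tsc22d3, chrX:140600473-140600772, minus strand: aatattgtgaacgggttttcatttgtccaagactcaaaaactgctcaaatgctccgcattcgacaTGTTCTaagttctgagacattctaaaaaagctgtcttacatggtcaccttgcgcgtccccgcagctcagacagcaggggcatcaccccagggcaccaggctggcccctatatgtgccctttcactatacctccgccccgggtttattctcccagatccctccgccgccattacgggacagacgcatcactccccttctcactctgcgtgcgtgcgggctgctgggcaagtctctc
Fkbp5, chr17:28486100-28486399, minus strand: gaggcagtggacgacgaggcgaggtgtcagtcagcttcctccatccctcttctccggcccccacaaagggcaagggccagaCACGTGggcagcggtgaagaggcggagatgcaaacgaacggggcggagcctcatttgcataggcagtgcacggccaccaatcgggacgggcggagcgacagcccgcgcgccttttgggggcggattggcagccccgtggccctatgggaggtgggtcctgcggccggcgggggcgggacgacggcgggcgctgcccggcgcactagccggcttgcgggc
Per1, chr11:69098699-69098998, plus strand: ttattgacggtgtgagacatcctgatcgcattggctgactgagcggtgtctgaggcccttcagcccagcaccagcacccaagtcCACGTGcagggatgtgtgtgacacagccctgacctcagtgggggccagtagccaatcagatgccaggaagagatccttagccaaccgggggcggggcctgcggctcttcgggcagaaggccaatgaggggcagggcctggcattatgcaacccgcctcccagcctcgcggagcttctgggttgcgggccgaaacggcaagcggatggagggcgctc
In the Sgk1 window the palindrome began 189 bases before the transcript start. A further single arm, 242 bases before it, overlapped an E-box that began 246 bases before it. The arm in the Tsc22d3 window lay 185 bases before the start, and the E-boxes of Fkbp5 and Per1 lay 169 and 166 bases before theirs. The windows of Hif3a, Pdk4 and Errfi1 held none of the 3 motifs, which says only that these letters are not in these windows.

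In the mm10 annotation of the count table the genes placed here lie on separate chromosomes. Fkbp5 spans chr17:28399094-28517527, Tsc22d3 chrX:140539528-140600659, Zbtb16 chr9:48654297-48836222 and Hif3a chr7:17031507-17062427. Sgk1 spans chr10:21882184-21999903, Per1 chr11:69095217-69109960, Pdk4 chr6:5483351-5496309 and Errfi1 chr4:150853919-150868892. Genes that overlap Fkbp5, Hif3a or Errfi1 averaged less than 2 counts a library, at most 0.845% of the counts of the gene they overlap.

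Per length, the 9 genes covered a wide range in the aorta. On the FPKM scale (fragments per unit of transcript length, adjusted for sequencing depth), the mean over 16 libraries ran from 51.9 for Pdk4, through 31.1 for Per1, 21.2 for Tsc22d3, 20.8 for Sgk1, 18.0 for Errfi1, 11.1 for Nr3c1, 8.22 for Fkbp5 and 4.63 for Zbtb16, to 0.698 for Hif3a. Tsc22d3, Sgk1 and Errfi1 overlapped widely in FPKM and their order is not resolved. In Sham mice Fkbp5 ranked eighth, at 5.45 ± 4.41 FPKM (SD, n = 4), and in 5/6 Nx-HPi-Lp mice sixth, at 19.0 ± 3.77 FPKM. In 5/6 Nx-LPi-Lp mice Pdk4 stood alone at the top, at 98.8 ± 45.9 FPKM, with its lowest library above every library of the other 8 genes in that group.

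**Figure D1:**
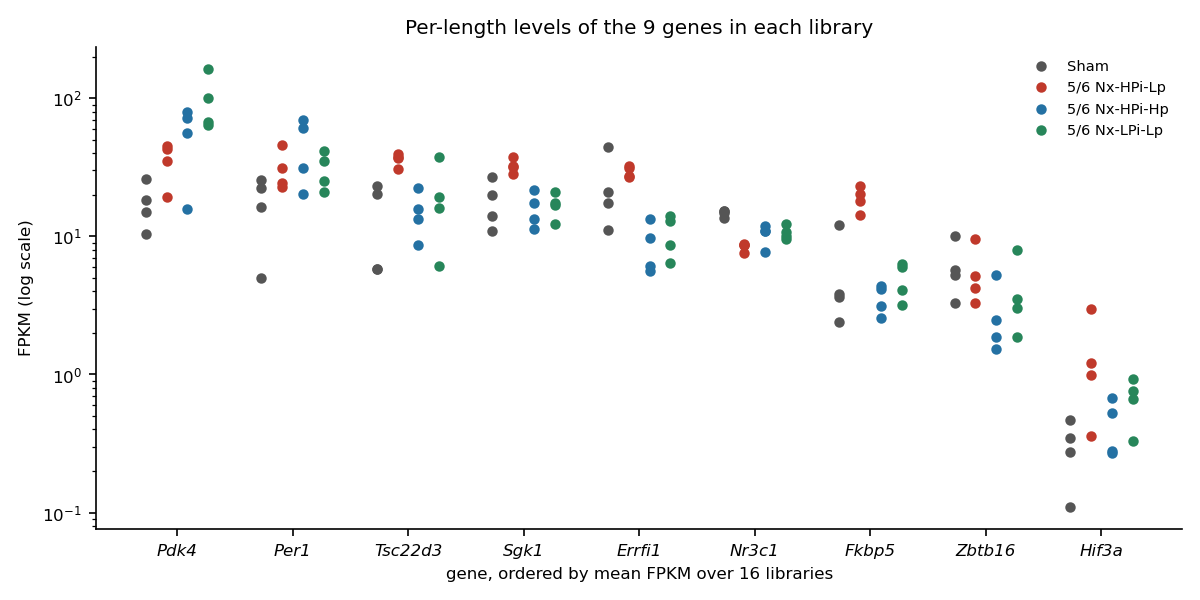
FPKM (vertical axis, log scale) of each of the 9 genes (horizontal axis, ordered by the mean over 16 libraries) in each library, coloured by group. Hif3a lies lowest, with a mean of 0.698 FPKM, and Pdk4 highest, with a mean of 51.9 FPKM, and the red 5/6 Nx-HPi-Lp points of Fkbp5 lie above all its other points.

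Whether 5/6 Nx changes these genes on one diet is addressed by 5/6 Nx-HPi-Lp against Sham. Fkbp5, Tsc22d3, Hif3a and Pdk4 rose, so 4 of the 9 genes passed an adjusted p of at most 0.05 with at least a 2-fold change, and none fell past it. Of all 16513 genes tested, 22.2% passed, 15.0% upward and 7.18% downward. On the adjusted p alone 6 of the 9 genes passed, Nr3c1 and Sgk1 with them, against 42.9% of all genes. Fkbp5 and Tsc22d3 lay wholly above the Sham values and Nr3c1 wholly below, 3 of 9 genes without overlap, against 43.0% of all genes (18.8% above and 24.2% below). The median log2 fold change was 0.83 over the 9 genes and -0.003 over all genes tested. Without Sham mouse 1 or without Sham mouse 4 the count was 1, Fkbp5 alone, and without 5/6 Nx-HPi-Lp mouse 4 it was 2.

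Whether dietary protein matters at high phosphorus is addressed by 5/6 Nx-HPi-Lp against 5/6 Nx-HPi-Hp. Fkbp5, Errfi1, Tsc22d3 and Sgk1 were higher on the low protein diet, 4 of 9 genes, where 8.12% of 16198 genes passed, 5.01% upward and 3.11% downward. The adjusted p alone gave those 4 and 13.0% of all genes. Those 4 also had no overlap between the groups, against 20.4% of all genes (10.1% above and 10.3% below). Whether dietary phosphorus matters at low protein is addressed by 5/6 Nx-HPi-Lp against 5/6 Nx-LPi-Lp. Fkbp5 and Errfi1 were higher and Pdk4 lower at high phosphorus, 3 of 9 genes, where 11.9% of 16253 genes passed, 7.90% upward and 3.98% downward. On the adjusted p alone Sgk1 was added, 4 of 9 genes against 20.1% of all. Without overlap were 5 of the 9 genes (those 3, Sgk1 higher and Nr3c1 lower), against 24.7% of all genes (12.6% above and 12.1% below). Without 5/6 Nx-LPi-Lp mouse 2 the count was 5, with Sgk1 and Tsc22d3 added. These 3 comparisons share the 5/6 Nx-HPi-Lp libraries and are not independent of each other.

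Fewer of the 9 genes passed between the other 5/6 Nx groups and Sham, whose libraries both comparisons share. In 5/6 Nx-HPi-Hp mice Pdk4 rose and Errfi1 fell, 2 of 9 genes, where 12.2% of 15882 genes passed (9.41% upward and 2.75% downward). With Nr3c1, 3 passed on the adjusted p alone, against 31.4% of all genes, and Nr3c1 was the 1 gene without overlap, against 33.8% (13.9% above and 19.9% below). The count of 2 became 0 without Sham mouse 3, and 1 without any other Sham mouse or without 5/6 Nx-HPi-Hp mouse 1, 2 or 3. Without 5/6 Nx-HPi-Hp mouse 1 the gene called was Zbtb16, and neither Pdk4 nor Errfi1 passed. Without 5/6 Nx-HPi-Hp mouse 4 the count was 3, with Per1 added. In 5/6 Nx-LPi-Lp mice Pdk4 rose, 1 of 9 genes, where 10.9% of 16071 genes passed (8.79% upward and 2.08% downward). With Nr3c1, 2 passed on the adjusted p alone, against 31.8% of all genes, and the same 2 were without overlap, against 35.6% (13.6% above and 22.1% below). The count of 1 became 2 without Sham mouse 4 (Errfi1 added) or without 5/6 Nx-LPi-Lp mouse 4 (Hif3a added). With 5/6 Nx-HPi-Hp set against 5/6 Nx-LPi-Lp, 0 of the 9 genes and 0 of 15850 genes passed edgeR's quasi-likelihood test, 0 and 1420 had an unadjusted p under 0.05, DESeq2 called 0 and 79, and limma called 0 and 0. None of the 9 was without overlap there, against 5.15% of all genes (2.93% above and 2.22% below). The log2 differences of the 9 genes there ran from -0.83 (SE 0.47) for Pdk4 to 0.55 (SE 0.38) for Per1.

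**Figure D2:**
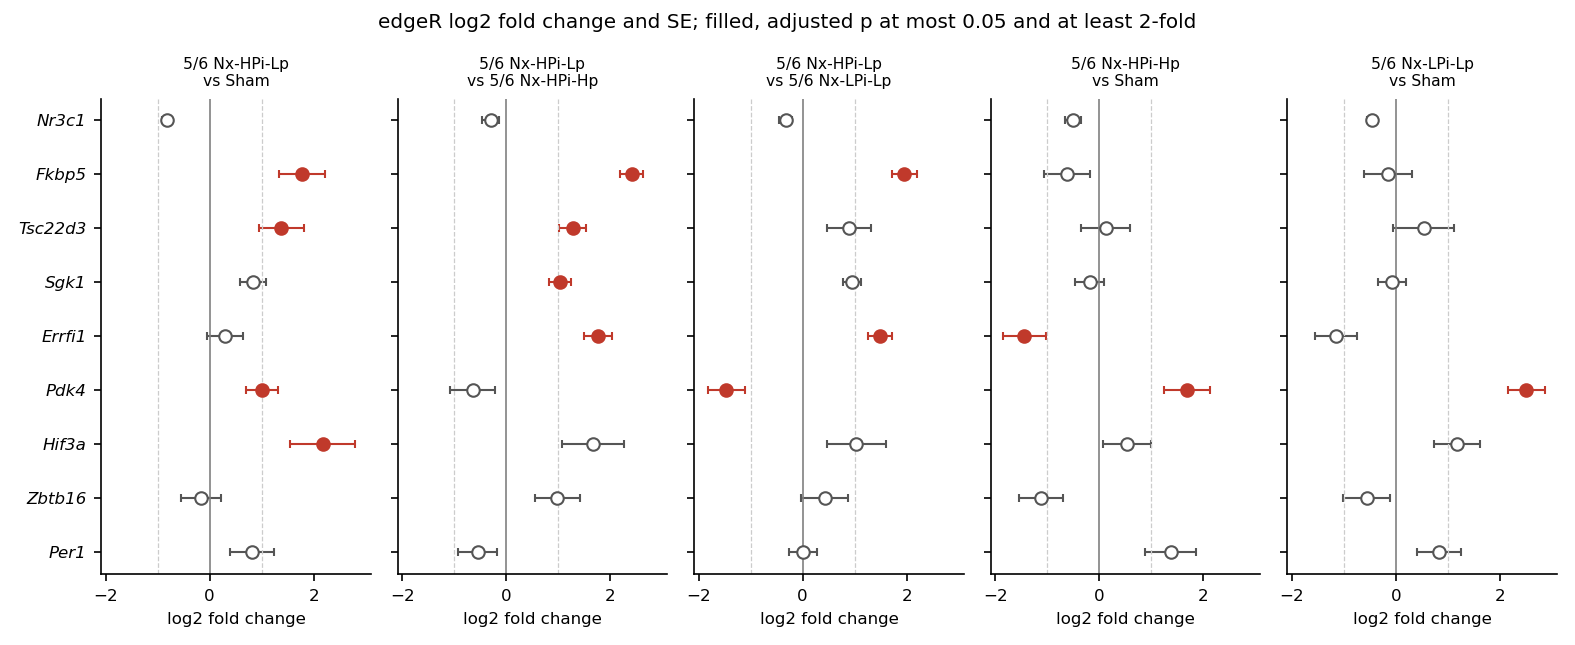
Log2 fold change (horizontal axis) with its SE for each gene in 5 pairwise comparisons, by edgeR on 4 against 4 libraries. Filled red points passed an adjusted p of at most 0.05 with at least a 2-fold change (dashed lines), and Fkbp5 is filled in each of the 3 panels with 5/6 Nx-HPi-Lp first, at 1.77, 2.42 and 1.96.

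The receptor gene was lower after 5/6 Nx. Nr3c1 stood at 115, 119, 118 and 105 CPM in the 4 Sham mice and at 55.2, 63.1, 64.3 and 65.5 CPM in 5/6 Nx-HPi-Lp mice. It stood at 89.2, 54.6, 78.4 and 84.3 CPM in 5/6 Nx-HPi-Hp mice and at 78.4, 69.5, 89.7 and 75.2 CPM in 5/6 Nx-LPi-Lp mice. Every 5/6 Nx library lay below every Sham library, and the 5/6 Nx-HPi-Lp values all lay below the 5/6 Nx-LPi-Lp values and below those of 5/6 Nx-HPi-Hp mice 1, 3 and 4. Against Sham the log2 difference was -0.83 (SE 0.09) in 5/6 Nx-HPi-Lp mice, with an adjusted p of 1.19e-04 (edgeR, quasi-likelihood, Benjamini-Hochberg, as for all adjusted p-values here). It was -0.50 (SE 0.16, adjusted p = 0.0346) in 5/6 Nx-HPi-Hp mice and -0.45 (SE 0.10, adjusted p = 0.00924) in 5/6 Nx-LPi-Lp mice. The differences passed on p in all 3 groups, while none reached 2-fold. That of 5/6 Nx-HPi-Hp mice no longer passed on p without Sham mouse 1 (adjusted p = 0.0653), 2 (adjusted p = 0.0774) or 3 (adjusted p = 0.0693) or without mouse 3 of its own group (adjusted p = 0.0575). The SD (n = 4) was 6.47 CPM in Sham mice, 4.68 CPM in 5/6 Nx-HPi-Lp mice, 15.3 CPM in 5/6 Nx-HPi-Hp mice and 8.496 CPM in 5/6 Nx-LPi-Lp mice. Summed smooth muscle markers, given above, were also below all Sham values in each 5/6 Nx-LPi-Lp and each 5/6 Nx-HPi-Lp library, and their part in the Nr3c1 difference was not tested.

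Fkbp5, the feedback inhibitor of the receptor, set the 5/6 Nx-HPi-Lp mice apart from every other group. Its level was 215, 166, 135 and 192 CPM in these mice and 23.7, 37.7, 119 and 35.4 CPM in Sham mice. It was 41.6, 28.7, 37.7 and 25.1 CPM in 5/6 Nx-HPi-Hp mice and 37.6, 55.6, 59.1 and 30.3 CPM in 5/6 Nx-LPi-Lp mice. All 4 libraries of 5/6 Nx-HPi-Lp mice lay above all 12 others, with Sham mouse 3 the nearest. The fold change was 3.42 against Sham (log2 1.77, SE 0.45, adjusted p = 0.0101), 5.34 against 5/6 Nx-HPi-Hp (log2 2.42, SE 0.22, adjusted p = 0.00115) and 3.88 against 5/6 Nx-LPi-Lp (log2 1.96, SE 0.24, adjusted p = 0.00191). Each difference stayed past the threshold with any single library left out. Sham mouse 3 set the size of the first, since without it the fold change against Sham was 5.60 (log2 2.49, adjusted p = 2.00e-04). Neither of the other 5/6 Nx groups was called different from Sham, with log2 differences of -0.62 (SE 0.44) and -0.15 (SE 0.46).

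**Figure D3:**
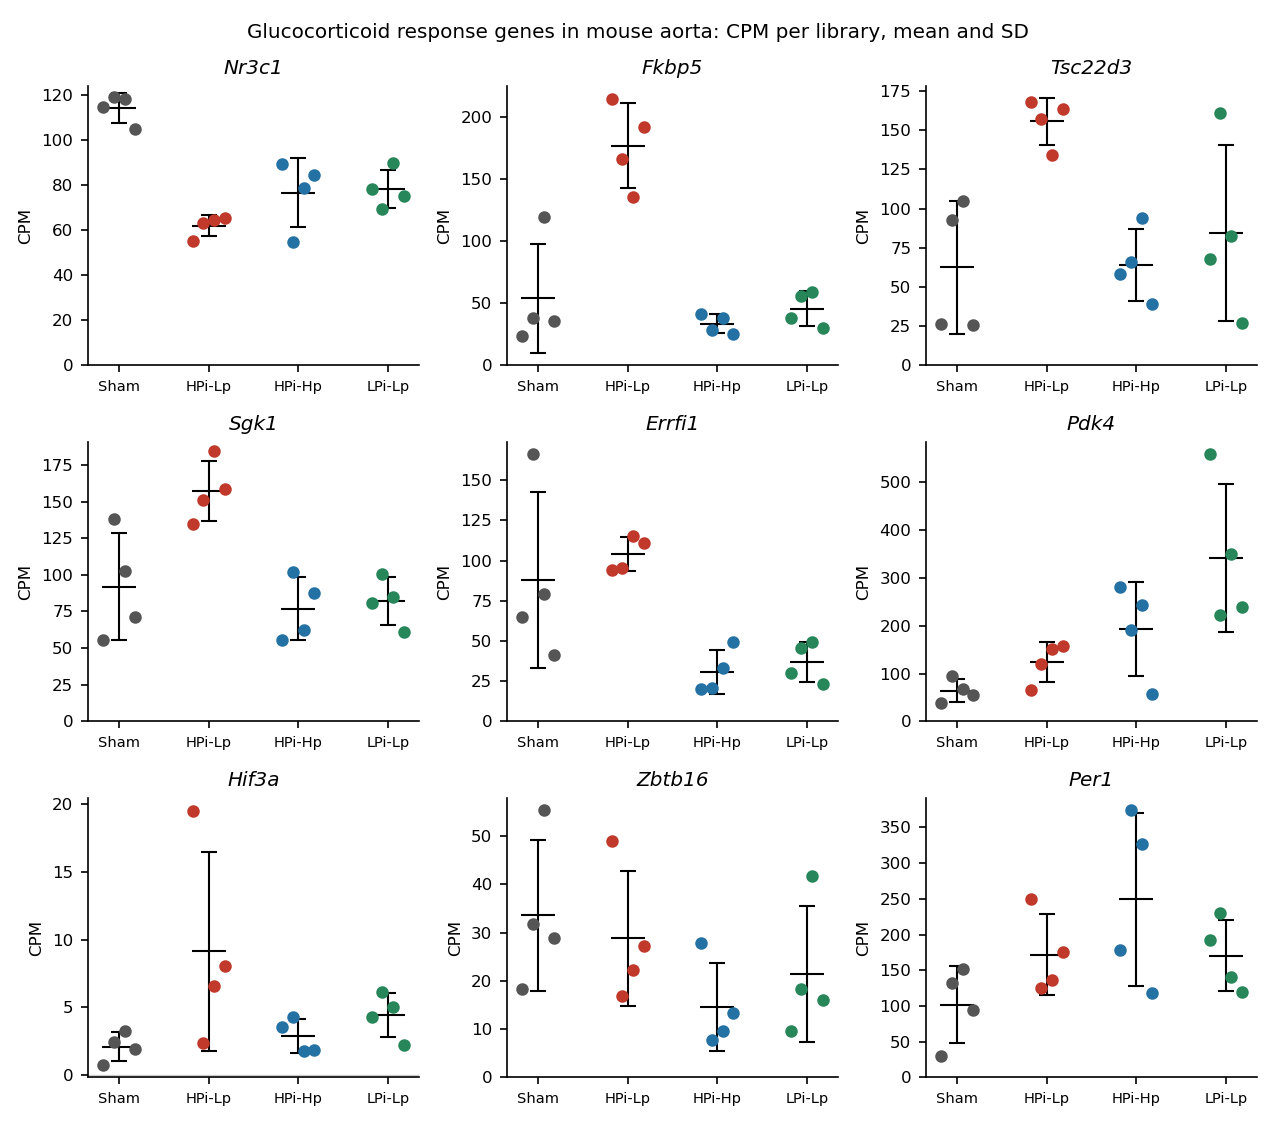
CPM (vertical axes, starting at 0) of each gene in each of the 4 libraries of a group (points, in replicate order), with the mean and SD (black bars). The 5/6 Nx groups are named by diet, and for Fkbp5 the 4 HPi-Lp points, 135 to 215 CPM, lie above the other 12.

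Tsc22d3, which encodes the glucocorticoid-induced leucine zipper, an anti-inflammatory protein, was high and even in 5/6 Nx-HPi-Lp mice and scattered elsewhere. Levels were 168, 157, 134 and 163 CPM there, against 26.3, 92.4, 105 and 26.1 CPM in Sham mice. They were 58.0, 65.8, 94.1 and 38.9 CPM in 5/6 Nx-HPi-Hp mice and 67.6, 161, 82.3 and 26.8 CPM in 5/6 Nx-LPi-Lp mice. The 5/6 Nx-HPi-Lp values were above all Sham and all 5/6 Nx-HPi-Hp values, and overlapped the 5/6 Nx-LPi-Lp values only through mouse 2 of that group. The log2 difference was 1.38 (SE 0.43, adjusted p = 0.0275) against Sham and 1.28 (SE 0.25, adjusted p = 0.0135) against 5/6 Nx-HPi-Hp. Against 5/6 Nx-LPi-Lp it was 0.89 (SE 0.42, adjusted p = 0.164), and 1.38 (adjusted p = 0.0302) without that mouse 2. In that library the summed level of skeletal and heart muscle markers was 5669 CPM, against 21.78 to 229.7 CPM in the other 3 of its group, and its part in the Tsc22d3 and Sgk1 values was not tested. The call against 5/6 Nx-HPi-Hp was lost with all 16 libraries in one fit (log2 1.29, adjusted p = 0.0697) and with the replicate number as a block (log2 1.35, adjusted p = 0.0613). The call against Sham was lost without Sham mouse 1 (log2 1.11, adjusted p = 0.0604), without Sham mouse 4 (log2 1.11, adjusted p = 0.0594) or without 5/6 Nx-HPi-Lp mouse 4 (log2 1.37, adjusted p = 0.0554).

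Sgk1, a kinase that raises sodium channel activity and answers to both glucocorticoids and mineralocorticoids, had its highest mean in 5/6 Nx-HPi-Lp mice too. Its level was 135, 151, 184 and 159 CPM in 5/6 Nx-HPi-Lp mice and 55.9, 138, 103 and 71.0 CPM in Sham mice. It was 55.6, 102, 62.7 and 87.9 CPM in 5/6 Nx-HPi-Hp mice and 80.6, 101, 85.1 and 61.0 CPM in 5/6 Nx-LPi-Lp mice. The 5/6 Nx-HPi-Lp values were above all values of both other 5/6 Nx groups, and only Sham mouse 2 reached into their range. The log2 difference was 1.03 (SE 0.22, adjusted p = 0.0162) against 5/6 Nx-HPi-Hp. It passed on p but stayed under 2-fold against 5/6 Nx-LPi-Lp (log2 0.94, SE 0.17, adjusted p = 0.00735) and against Sham (log2 0.83, SE 0.25, adjusted p = 0.0216). The first call dropped under 2-fold without 5/6 Nx-HPi-Hp mouse 1 (log2 0.90) or 3 (log2 0.94) or without 5/6 Nx-HPi-Lp mouse 3 (log2 0.94). It was lost on p without 5/6 Nx-HPi-Lp mouse 4 (log2 1.03, adjusted p = 0.05004) and with the replicate number as a block (log2 1.07, adjusted p = 0.0601). A call was gained against Sham without Sham mouse 2 (log2 1.07), and against 5/6 Nx-LPi-Lp without its mouse 2 (log2 1.04) or 5/6 Nx-HPi-Lp mouse 1 (log2 1.02).

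Errfi1, which encodes a feedback inhibitor of the EGF receptor, separated the diets but not the surgery. Levels were 94.1, 95.6, 115 and 111 CPM in 5/6 Nx-HPi-Lp mice, within the Sham values of 65.2, 166, 79.0 and 41.2 CPM. They were 20.2, 20.9, 33.3 and 49.1 CPM in 5/6 Nx-HPi-Hp mice and 30.1, 45.6, 49.4 and 23.2 CPM in 5/6 Nx-LPi-Lp mice. All values of the last 2 groups were below all 5/6 Nx-HPi-Lp values. The log2 difference was 1.76 (SE 0.27, adjusted p = 0.00551) against 5/6 Nx-HPi-Hp and 1.49 (SE 0.23, adjusted p = 0.00393) against 5/6 Nx-LPi-Lp, and both passed with any single library left out. Against Sham it was 0.30 (SE 0.35, adjusted p = 0.520). Without Sham mouse 2 that difference passed on p but stayed under 2-fold (log2 0.79, adjusted p = 0.0201). The level of 5/6 Nx-HPi-Hp mice fell against Sham by 1.44 on the log2 scale (SE 0.42, adjusted p = 0.0283), a call lost without Sham mouse 2 (adjusted p = 0.0741) or 3 (adjusted p = 0.0514) or without 5/6 Nx-HPi-Hp mouse 1 (adjusted p = 0.0690), 2 (adjusted p = 0.0740) or 3 (adjusted p = 0.0531). In 5/6 Nx-LPi-Lp mice the difference from Sham was -1.15 (SE 0.40, adjusted p = 0.0538), and it passed without Sham mouse 4 (log2 -1.39, adjusted p = 0.0281).

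Pdk4, the kinase that shuts off pyruvate entry into mitochondria and is also induced by fasting and fatty acids, ran in another order. It was highest in 5/6 Nx-LPi-Lp mice, at 558, 222, 349 and 240 CPM, and lowest in Sham mice, at 38.6, 95.1, 67.1 and 54.2 CPM. It was 280, 190, 244 and 57.2 CPM in 5/6 Nx-HPi-Hp mice and 65.6, 120, 152 and 157 CPM in 5/6 Nx-HPi-Lp mice. All 5/6 Nx-LPi-Lp values were above all Sham and all 5/6 Nx-HPi-Lp values. Against Sham the log2 difference was 2.51 (SE 0.35, adjusted p = 0.00320) in 5/6 Nx-LPi-Lp mice, 1.68 (SE 0.44, adjusted p = 0.0208) in 5/6 Nx-HPi-Hp mice and 1.01 (SE 0.31, adjusted p = 0.0251) in 5/6 Nx-HPi-Lp mice. Both smaller differences came with values overlapping Sham, and their calls turned on single libraries. The 5/6 Nx-HPi-Hp call was lost without Sham mouse 1, 3 or 4 or without 5/6 Nx-HPi-Hp mouse 1 (adjusted p from 0.0514 to 0.0590). The 5/6 Nx-HPi-Lp call was lost without Sham mouse 1, 3 or 4 or without 5/6 Nx-HPi-Lp mouse 3 or 4 (adjusted p from 0.0594 to 0.0766). Against 5/6 Nx-LPi-Lp, Pdk4 fell by 1.47 on the log2 scale in 5/6 Nx-HPi-Lp mice (SE 0.35, adjusted p = 0.0205), a call lost without 5/6 Nx-LPi-Lp mouse 3 (adjusted p = 0.0518). The summed level of 6 brown adipocyte markers had its group medians in the same order as Pdk4. It was 4880, 1353, 2976 and 2769 CPM in 5/6 Nx-LPi-Lp mice, 769.0 to 2699 CPM in 5/6 Nx-HPi-Hp mice, 582.6 to 1920 CPM in 5/6 Nx-HPi-Lp mice and 334.1 to 699.6 CPM in Sham mice. Within the last 3 of these groups, the library highest in the sum was not the one highest in Pdk4. Among 5/6 Nx-HPi-Hp mice, mouse 4 was lowest in Pdk4, in that sum (769.0 CPM) and in the summed white adipocyte markers (1220 CPM). The part of fat around or in the vessel in the Pdk4 result was not tested.

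Hif3a, a hypoxia-inducible factor subunit that opposes the others, was the weakest of the 9 genes and rose in 5/6 Nx-HPi-Lp mice. Levels were 19.5, 2.36, 6.62 and 8.06 CPM there and 0.771, 2.45, 3.29 and 1.90 CPM in Sham mice. They were 3.55, 4.33, 1.80 and 1.86 CPM in 5/6 Nx-HPi-Hp mice and 4.33, 6.15, 5.03 and 2.24 CPM in 5/6 Nx-LPi-Lp mice. Among 5/6 Nx-HPi-Lp mice, 3 were above all other libraries and mouse 2 lay inside the Sham range. The log2 difference from Sham was 2.17 (SE 0.63, adjusted p = 0.0192), from 20 to 73 counts a library in Sham mice and 125 to 310 in 5/6 Nx-HPi-Lp mice. That call was lost without Sham mouse 1 (log2 1.88, adjusted p = 0.0518) or 4 (log2 2.12, adjusted p = 0.0557). It was also lost with the replicate number as a block and with limma on log2(FPKM + 1). The difference shrank to 1.49 (adjusted p = 0.0435) without 5/6 Nx-HPi-Lp mouse 1. Against 5/6 Nx-HPi-Hp it was 1.66 (SE 0.60, adjusted p = 0.0926) and against 5/6 Nx-LPi-Lp 1.03 (SE 0.57, adjusted p = 0.225). The first passed without 5/6 Nx-HPi-Lp mouse 2 (log2 1.99, adjusted p = 0.0416), with DESeq2 and with all 16 libraries in one fit. The summed level of 6 sympathetic neuron markers in 5/6 Nx-HPi-Lp mice was 770.9, 23.3, 168.6 and 614.4 CPM, the same order as Hif3a, against 13.0 to 14.8 CPM in Sham mice. Its part in the Hif3a result was not tested.

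Zbtb16 and Per1 did not pass in any of the 6 comparisons. Zbtb16, a zinc finger transcription factor that is among the strongest hormone-induced genes in many tissues, stood at 49.0, 16.9, 22.2 and 27.2 CPM in 5/6 Nx-HPi-Lp mice and 18.3, 31.8, 55.4 and 28.9 CPM in Sham mice. It stood at 27.8, 7.84, 9.52 and 13.4 CPM in 5/6 Nx-HPi-Hp mice and 9.53, 18.4, 41.7 and 16.1 CPM in 5/6 Nx-LPi-Lp mice. All 4 groups overlapped. The log2 difference of 5/6 Nx-HPi-Lp from Sham was -0.17 (SE 0.38, adjusted p = 0.747), and that of 5/6 Nx-HPi-Hp from Sham was -1.12 (SE 0.42, adjusted p = 0.0655). The latter passed without 5/6 Nx-HPi-Hp mouse 1 (log2 -1.65, adjusted p = 0.0212), as did the difference between 5/6 Nx-HPi-Lp and 5/6 Nx-HPi-Hp (log2 1.49, adjusted p = 0.0441).

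Per1, a clock gene that glucocorticoids also induce directly, stood at 251, 125, 137 and 175 CPM in 5/6 Nx-HPi-Lp mice and 29.7, 132, 152 and 94.2 CPM in Sham mice. It stood at 179, 374, 327 and 118 CPM in 5/6 Nx-HPi-Hp mice and 192, 230, 141 and 119 CPM in 5/6 Nx-LPi-Lp mice. Only Sham mouse 1 was far below the rest. The differences from Sham were 0.81 (SE 0.42, adjusted p = 0.150), 1.37 (SE 0.49, adjusted p = 0.0562) and 0.84 (SE 0.42, adjusted p = 0.156) in the same order of groups, and the second passed without 5/6 Nx-HPi-Hp mouse 4 (log2 1.61, adjusted p = 0.0178). Of 13 other core clock genes, 1 fell and none rose in 5/6 Nx-HPi-Lp against Sham, 3 fell and none rose against 5/6 Nx-HPi-Hp, and 4 fell and 1 rose against 5/6 Nx-LPi-Lp. Of all genes 7.18%, 3.11% and 3.98% fell in these comparisons, and 7.90% rose in the last. Npas2, the partner of the clock activator BMAL1, was 4.06 to 65.1 CPM in Sham mice and fell by 2.70 on the log2 scale in 5/6 Nx-HPi-Lp mice (SE 0.71, adjusted p = 0.0128). Its median was 3.96 CPM there, 1.35 CPM in 5/6 Nx-HPi-Hp mice and 3.38 CPM in 5/6 Nx-LPi-Lp mice. Junb was the only 1 of 8 immediate early genes to rise in 5/6 Nx-HPi-Lp mice against Sham (log2 1.22, SE 0.25, adjusted p = 0.00336), where 15.0% of all genes did. Its mean was 221.6 CPM there, 259.5 CPM in 5/6 Nx-HPi-Hp mice and 123.3 CPM in 5/6 Nx-LPi-Lp mice. In 5/6 Nx-HPi-Hp mice 3 of the 8 rose against Sham, where 9.41% of all genes did.

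Some pairs of the 9 genes varied together within groups and others did not. On deviations of log2(CPM + 1) from the group means over 16 libraries, a description with no test, Pearson's r was 0.72 between Fkbp5 and Tsc22d3, 0.71 between Tsc22d3 and Per1 and 0.67 between Fkbp5 and Zbtb16. It was 0.65 between Sgk1 and Errfi1 but only 0.14 between Fkbp5 and Errfi1, and 0.15 between Nr3c1 and Fkbp5. It was 0.009 between Zbtb16 and Sgk1, -0.29 between Nr3c1 and Hif3a and lowest, at -0.43, between Nr3c1 and Per1. No spread of r over pairs of unrelated genes was taken for comparison. Sham mouse 3 carried the highest Sham level of Fkbp5, Tsc22d3, Zbtb16, Hif3a and Per1, while Sham mouse 1 carried the lowest of Fkbp5, Zbtb16, Hif3a, Sgk1, Per1 and Pdk4. Sgk1, Pdk4 and Errfi1 were instead highest in Sham mouse 2. The points share library and depth scaling.

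**Figure D4:**
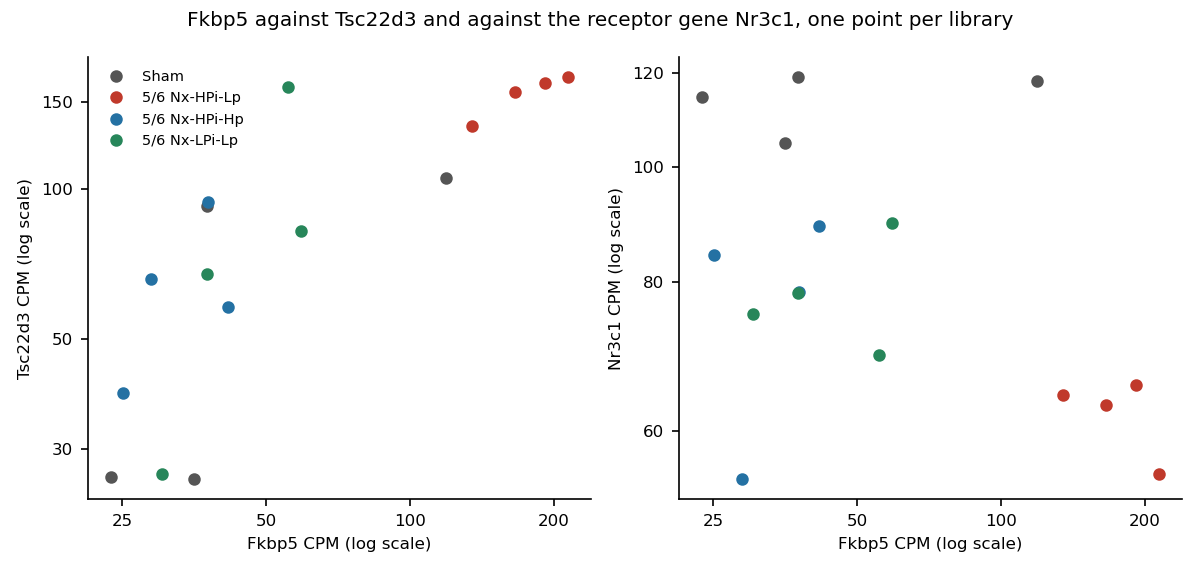
Each point is 1 library, coloured by group, with Fkbp5 CPM (horizontal axis, log scale) against Tsc22d3 CPM (left) and Nr3c1 CPM (right), both on log scales. The red 5/6 Nx-HPi-Lp points lie farthest right, at 135 to 215 CPM of Fkbp5, with Tsc22d3 at 134 to 168 CPM and Nr3c1 at 55.2 to 65.5 CPM, and the Sham point nearest them is mouse 3.

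Of 10 receptor partners (heat shock protein 90, its co-chaperones and receptor coactivators and corepressors), 1 fell and none rose in 5/6 Nx-HPi-Lp against Sham, with a median log2 difference of -0.40, where 7.18% of all genes fell. A further 5 passed on the adjusted p under 2-fold, 6 of 10 in all against 42.9% of all genes. The values of 8 of the 10 lay wholly below Sham, where 24.2% of all genes did. The partners were also lower in the other 5/6 Nx groups against Sham, though none was called. In 5/6 Nx-HPi-Hp mice the median was -0.52, 6 passed on the adjusted p (31.4% of all genes) and 7 lay wholly below (19.9%). In 5/6 Nx-LPi-Lp mice the median was -0.31, 5 passed on the adjusted p (31.8%) and 6 lay wholly below (22.1%). Fkbp4, the co-chaperone that competes with FKBP5 and favours hormone binding, fell from 164 ± 9.64 CPM in Sham mice to 76.9 ± 5.21 CPM in 5/6 Nx-HPi-Lp mice (SD, n = 4), a log2 difference of -1.04 (SE 0.09, adjusted p = 4.77e-05). Against 5/6 Nx-HPi-Hp it differed by -0.58 (SE 0.15, adjusted p = 0.0363) and against 5/6 Nx-LPi-Lp by -0.75 (SE 0.12, adjusted p = 0.00417), under 2-fold in both, and its 5/6 Nx-HPi-Lp values lay below all others. It was just past 2-fold against Sham and was not called without 5/6 Nx-HPi-Lp mouse 1 or 2. None of the 10 passed between 5/6 Nx-HPi-Lp and another 5/6 Nx group.

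Hsd11b1, the enzyme that regenerates active glucocorticoid inside cells, rose from 33.6 ± 5.52 CPM in Sham mice to 125 ± 18.8 CPM in 5/6 Nx-HPi-Lp mice. Its log2 difference was 1.95 (SE 0.15, adjusted p = 2.55e-05), and it was 1.52 (SE 0.35, adjusted p = 0.0220) against the 43.8 ± 22.5 CPM of 5/6 Nx-HPi-Hp mice, a call lost without mouse 2 of that group or without 5/6 Nx-HPi-Lp mouse 3 or 4. Against 5/6 Nx-LPi-Lp mice, which had 147 ± 77.4 CPM, it was -0.24 (SE 0.32, adjusted p = 0.629), and Hsd11b1 in those mice also rose against Sham (log2 2.22, SE 0.32, adjusted p = 0.00327). Both low protein 5/6 Nx groups were thus above the low protein Sham group, and the high protein group was not called different from Sham. The summed white adipocyte markers, at 559.1 to 1373 CPM in Sham mice and 3266 to 5750 CPM in 5/6 Nx-HPi-Lp mice, were 5498, 2889, 7372 and 1220 CPM in 5/6 Nx-HPi-Hp mice and 8061, 3453, 4226 and 2889 CPM in 5/6 Nx-LPi-Lp mice, and their part in the Hsd11b1 result was not tested. Hsd11b2, which inactivates the hormone, was under 2 CPM in every library. It was 0.839 to 1.77 CPM in 5/6 Nx-HPi-Lp mice and 0.119 to 0.677 CPM in Sham mice (log2 2.36, SE 0.65, adjusted p = 0.0157), a call lost without Sham mouse 1, 2 or 4. Hsd11b2 was too low to test in 5/6 Nx-LPi-Lp mice against Sham. It entered the tests of 5/6 Nx-HPi-Lp against those groups through the 5/6 Nx-HPi-Lp libraries, so little can be drawn from its calls. Nr3c2, the mineralocorticoid receptor, which also binds glucocorticoids, fell from 22.8 ± 6.42 CPM in Sham mice to 6.10 ± 1.73 CPM in 5/6 Nx-HPi-Lp mice (log2 -1.86, SE 0.26, adjusted p = 4.28e-04). It stood at 13.6 ± 1.15 CPM in 5/6 Nx-HPi-Hp mice and at 15.8 ± 1.24 CPM in 5/6 Nx-LPi-Lp mice, both above all 5/6 Nx-HPi-Lp values (log2 -1.16, SE 0.25, adjusted p = 0.0183, and log2 -1.38, SE 0.23, adjusted p = 0.00458).

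Of 16 other genes known as receptor targets, 15 could be tested, Tat being too low. In 5/6 Nx-HPi-Lp mice 8 rose and none fell against Sham, 5 rose and 1 fell against 5/6 Nx-HPi-Hp, and 5 rose and none fell against 5/6 Nx-LPi-Lp. Of all genes 15.0%, 5.01% and 7.90% rose in these comparisons, and 7.18%, 3.11% and 3.98% fell. Ddit4, Cebpd, Cdkn1a, Mt1 and Mt2 were the 5 that rose in both of the last comparisons, and Dusp1 the 1 that fell (named here after their values were seen). Dusp1 was also the 1 target added by the adjusted p alone against Sham, where 42.9% of all genes passed. Its mean was lower, at 178 CPM beside 305 CPM in Sham mice. None was added against the other 5/6 Nx groups (13.0% and 20.1% of all genes). Of the 15 targets, 11 had a positive and 4 a negative log2 difference from Sham. The median log2 differences of the 15 targets tested were 1.01, 0.49 and 0.58, beside -0.003, 0.01 and -0.016 over all genes tested. Counted over the 16 targets, the partners and the steroid receptors and enzymes together, 12, 8 and 7 of 30 passed (29 tested). Hsd11b2 is in the 12 and the 7, and Mt2 in the 8 and the 7, in tests that each entered through the 5/6 Nx-HPi-Lp libraries. Of all genes 22.2%, 8.12% and 11.9% passed. The count of 8 was 5 without 5/6 Nx-HPi-Lp mouse 3. Mt1, a zinc-binding metallothionein, rose from 212 ± 76.9 to 717 ± 295 CPM against Sham (log2 1.81, SE 0.34, adjusted p = 0.00222). Mt2, its close copy, with which it may share reads, was 0.540 to 0.874 CPM in Sham mice and 4.64 to 13.3 CPM in 5/6 Nx-HPi-Lp mice, and rose by 3.65 on the log2 scale (SE 0.44, adjusted p = 1.84e-04). Both also passed against the other 5/6 Nx groups, with log2 differences of 1.89 and 3.96 against 5/6 Nx-HPi-Hp and 1.64 and 3.81 against 5/6 Nx-LPi-Lp. Mt2 was too low to test between those groups (medians of 0.543 and 0.416 CPM). It entered the tests against them through the 5/6 Nx-HPi-Lp libraries, so little can be drawn from its calls there.

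Other targets differed from Sham but were not called between diets. Angptl4, an inhibitor of lipoprotein lipase, rose in 5/6 Nx-HPi-Lp mice against Sham (log2 2.35, SE 0.44, adjusted p = 0.00218) and also in 5/6 Nx-HPi-Hp mice (log2 2.83, SE 0.54, adjusted p = 0.00977) and 5/6 Nx-LPi-Lp mice (log2 1.64, SE 0.48, adjusted p = 0.0265), the last a call lost without any single Sham mouse or 5/6 Nx-LPi-Lp mouse 1. Glul, glutamine synthetase, rose from 381 ± 186 to 891 ± 85.3 CPM (log2 1.28, SE 0.29, adjusted p = 0.00596) and stood at 839 ± 518 and 1260 ± 675 CPM in the other 5/6 Nx groups. Map3k6, a stress kinase, and Sult1a1, a sulfotransferase, rose against Sham by 1.44 (SE 0.34, adjusted p = 0.00767) and 1.25 (SE 0.33, adjusted p = 0.0128). None of these 4 passed between 5/6 Nx-HPi-Lp and another 5/6 Nx group.

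**Figure D5:**
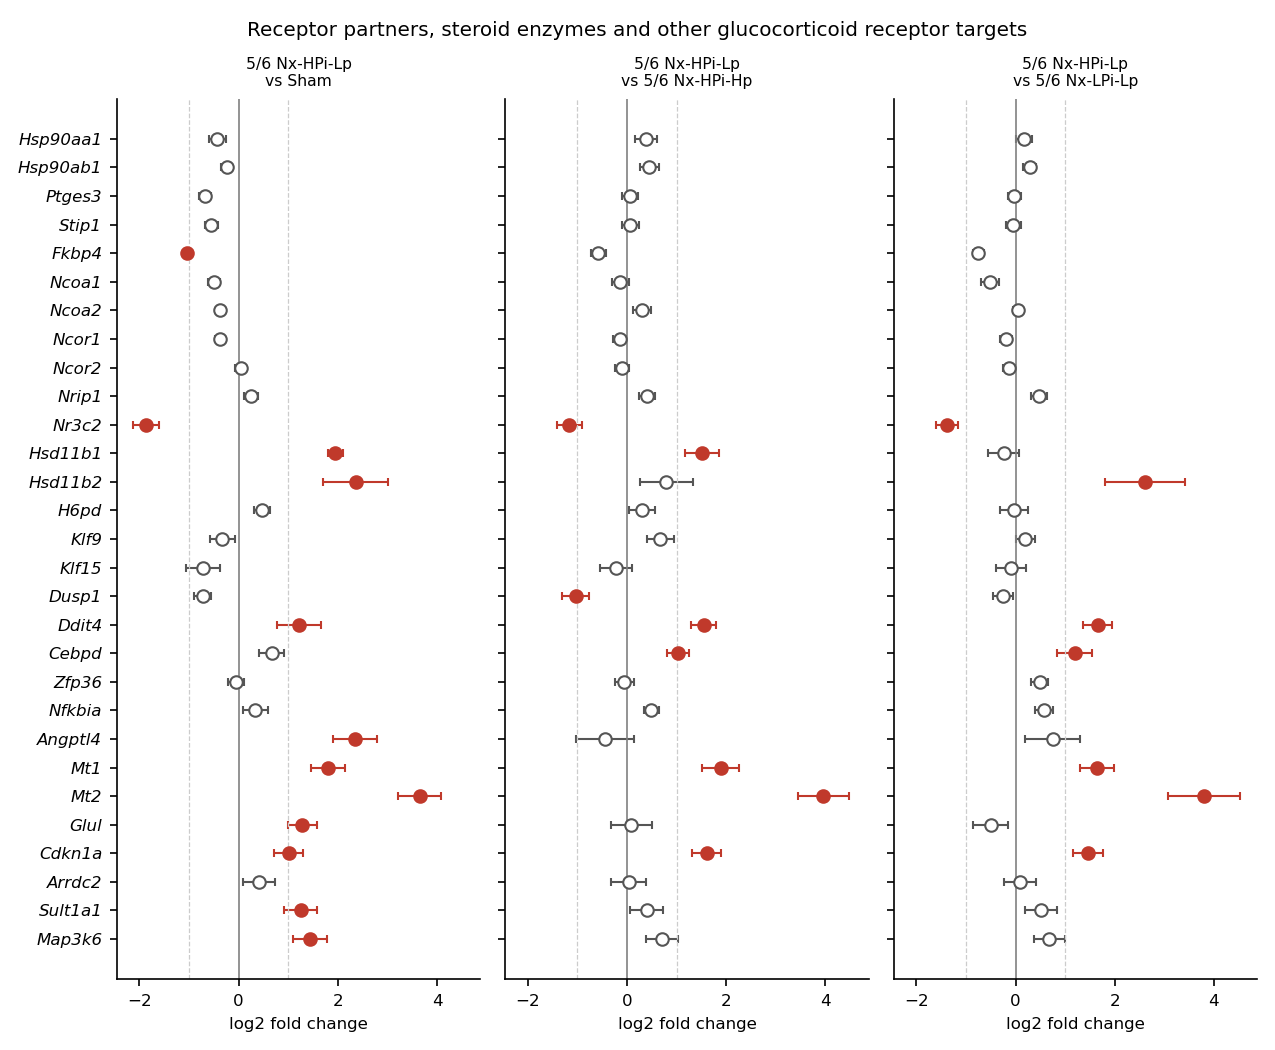
Log2 fold change (horizontal axes) with its SE for 29 genes (receptor partners, steroid receptors and enzymes, and other receptor targets, top to bottom) in 5/6 Nx-HPi-Lp mice against each other group. Filled red points passed an adjusted p of at most 0.05 with at least a 2-fold change, 12, 8 and 7 of them from left to right, with Nr3c2 to the left of 0 and Mt1 and Mt2 to the right of it in each panel.

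The genes closest in pattern to each of the 9, by Pearson's r of log2(CPM + 1) over all 16 libraries among 15023 genes, are a description that the group differences enter. Nr3c1 ran closest to Cav1 (r = 0.96), Med9 and Reep5. Fkbp5 ran closest to Slc3a2 (r = 0.96), the heavy chain of amino acid transporters, then Slc25a30 and Setdb2. Pdk4 ran closest to Acadl and Etfa (r = 0.96 for both), enzymes of mitochondrial fatty acid oxidation, and Klhdc7a. Tsc22d3 ran closest to Jam2 (r = 0.88), Ddit4 and S1pr1, and Sgk1 to Ms4a6b (r = 0.88), Brox and Cebpd. Errfi1 ran closest to Sash1 (r = 0.90), Ube2g2 and Tmf1, and Zbtb16 to Haus2 (r = 0.88), Sbf2 and Rwdd2a. Hif3a ran closest to Cyp2d22 (r = 0.88), Map3k6 and Phf24, and Per1 to Pop4 (r = 0.89), Inpp1 and Sytl1. Ddit4, Cebpd and Map3k6 were also on the list of other receptor targets.

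Among 7 markers of adrenal cortex cells, Cyp11b1 and Cyp11b2, which make corticosterone and aldosterone, had 0 counts in all 16 libraries. The sum of the 7 was 4.70 to 7.12 CPM in Sham mice, 8.61 to 18.2 CPM in 5/6 Nx-HPi-Lp mice, 6.60 to 13.6 CPM in 5/6 Nx-HPi-Hp mice and 6.12 to 8.47 CPM in 5/6 Nx-LPi-Lp mice. Star, which carries cholesterol into mitochondria, was 4.47 to 6.73 CPM in Sham mice and 6.29 to 9.77 CPM in 5/6 Nx-HPi-Lp mice. Cyp11a1, which cuts the cholesterol side chain, rose from 0.119 to 0.306 CPM in Sham mice to 1.22 to 2.65 CPM in 5/6 Nx-HPi-Lp mice (log2 3.31, SE 0.48, adjusted p = 5.09e-04). Mc2r, the corticotropin receptor, rose from 0 to 0.180 CPM to 0.464 to 5.04 CPM (log2 4.97, SE 1.03, adjusted p = 0.00381). Both genes were too low to test in the other 5/6 Nx groups against Sham. They entered this test through the 5/6 Nx-HPi-Lp libraries, so no share of markers passing is drawn from them. In 5/6 Nx-HPi-Hp mice Cyp11a1 was 0.375 to 3.12 CPM and Mc2r 0.219 to 0.914 CPM. In 5/6 Nx-LPi-Lp mice they were 0.433 to 1.69 and 0.0952 to 1.14 CPM. Summed fibroblast markers were 1783 to 2764 CPM in Sham mice and 2834 to 12120 CPM in 5/6 Nx-HPi-Lp mice, and summed endothelial markers 682.6 to 1037 and 762.5 to 949.4 CPM. The part of these cell types in the differences of the 9 genes was not tested.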

How the data were processed

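The data were RNA sequencing of 16 mouse aortas. Reads had been aligned to mm10 with HISAT2 (version 2.0.5) and counted with featureCounts (version 1.5.0-p3), per the study's methods, and the authors deposited raw counts per gene and FPKM. Whether counting used strand or multiply mapped reads is not given in the sources used here. The deposited FPKM equalled the count over gene length and a library size scaled by DESeq2's size factors (median ratio 1 in each of the 16 libraries).

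Counts were tested with edgeR 4.0.16 (R 4.3.3) for each pair of groups on its 8 libraries, using filterByExpr, TMM scaling and the quasi-likelihood test, and p-values were adjusted over all genes tested. Calls needed an adjusted p no larger than 0.05 and at least a 2-fold change, the limits used in the study. The code was tested on simulated data. DESeq2 1.42.0, limma 3.58.1 on log2(FPKM + 1) and log2(FPKM + 0.1), other scalings and filters and single libraries left out served as alternatives. Total counts of 13659525 to 57276915 set the precision. No 2 libraries of a group were copies (lowest chi-square per gene 20.0). The members, gene lists and tests were chosen with earlier results of these data known. Named were all 9 genes, Nr3c2, Hsd11b1 and Hsd11b2, at most 6 called genes of each pathway list and 3 of each side list by size against Sham, and the 3 genes nearest in pattern. Promoters were from RefSeq, and the figures were drawn with matplotlib 3.10.9 in Python 3.11.15.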

Additional observations from a re-analysis of the deposited data

Results flagged for a closer look

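Among 36 sets of 4 libraries (9 genes in 4 groups), 1 held a library that stood apart by Dixon's test at the 95% level. Chance flags about 1 in 20 such sets. Fkbp5 in Sham mouse 3 was 119 CPM, with the next Sham library at 37.7 CPM, a gap of 0.853 of the Sham range. That library was still below the lowest 5/6 Nx-HPi-Lp library, at 135 CPM.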

How the results depend on the processing

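Over 590 member values under settings that kept all libraries, 553 kept their direction and side of the threshold, 21 passed only under the alternative, 11 no longer passed and 5 changed sign, none of the 5 for a called gene. The setting with no fold limit reused the main fit, so its values could not change in direction. It gave 49 of the 553 and 5 of the 21. Fkbp5 passed in the 3 comparisons of 5/6 Nx-HPi-Lp mice under every setting run. With library totals the median log2 difference of all genes was -0.14, -0.19 and -0.22 for 5/6 Nx-HPi-Lp, for 5/6 Nx-HPi-Hp and for 5/6 Nx-LPi-Lp against Sham, beside -0.003, 0.018 and 0.02 with TMM. The cause of the changes below was not tested.

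Genes of the 9 called: for 5/6 Nx-HPi-Lp against Sham, 2 (main 4) with limma on log2(FPKM + 1), and 1 to 5 with 1 library left out. Against 5/6 Nx-HPi-Hp it was 3 to 5 and against 5/6 Nx-LPi-Lp 2 to 5 with 1 left out. For 5/6 Nx-HPi-Hp against Sham it was 4 (main 2) with no filter and 0 to 3 with 1 left out. For 5/6 Nx-LPi-Lp against Sham (main 1) it was 2 with library totals, no filter, all 16 libraries in one fit, the replicate block or no fold limit, 3 with DESeq2 and 1 to 2 with 1 left out. Of the 30 pathway genes, 19 (main 12) were called against Sham with no fold limit, and 9 to 12 with 1 left out. Against 5/6 Nx-HPi-Hp (main 8) it was 5 with limma on log2(FPKM + 1), 3 with the replicate block and 5 to 8 with 1 left out, and against 5/6 Nx-LPi-Lp (main 7) 5 to 6. For 5/6 Nx-HPi-Hp against Sham (main 1) it was 2 with library totals, 3 with no filter, 9 with no fold limit and 1 to 5 with 1 left out. For 5/6 Nx-LPi-Lp against Sham (main 3) it was 9 with no fold limit and 2 to 4 with 1 left out. For 5/6 Nx-HPi-Hp against 5/6 Nx-LPi-Lp (main 0) it was 1, Hsd11b1, with DESeq2 or the replicate block.

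Uncalled log2 values whose range with 1 library left out crossed 0 were those of Zbtb16 for 5/6 Nx-HPi-Lp against Sham (-0.5457 to 0.1562) and Per1 against 5/6 Nx-LPi-Lp (-0.2133 to 0.1721, and -0.0028 with no filter). For 5/6 Nx-HPi-Hp against Sham they were Fkbp5 (-0.8878 to 0.1106), Tsc22d3 (-0.1489 to 0.4851, and -0.1172 with library totals) and Sgk1 (-0.3763 to 0.0698). For 5/6 Nx-LPi-Lp against Sham they were Fkbp5 (-0.4002 to 0.5908), Tsc22d3 (-0.0029 to 0.9012) and Sgk1 (-0.2577 to 0.1882), where Fkbp5 was also 0.0356 and 0.0706 with limma on log2(FPKM + 1) and log2(FPKM + 0.1) and 0.0921 with the replicate block. Between 5/6 Nx-HPi-Hp mice and those on 5/6 Nx-LPi-Lp they were Nr3c1 (-0.1207 to 0.082), Tsc22d3 (-0.6983 to 0.1169) and Sgk1 (-0.2799 to 0.0262).

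The animal numbers did not pair the samples: deviations of same-numbered animals correlated from -0.276 to 0.536, at most 4 of 8 libraries in a comparison correlated best with their own number, and no comparison had all 4 pairs over 0.1. With the replicate block 3, 3, 2, 2, 2 and 0 of the 9 genes were called in the 6 comparisons. Hif3a had the fewest counts, down to 20 in a library.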
